A study of Mus musculus with 3 samples.

Results

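Transcripts of 6 chemokine receptor genes, Ccr1, Ccr2, Ccr7, Ccrl2, Cx3cr1 and Cxcr4, were measured in stimulated mouse macrophages. The genes were chosen by symbol, as receptors that are known from macrophages and from the cells around them. The choice was made with earlier results of these data known. The genes are 6 of 55536 annotated gene entries. All 6 had a row in both quantifications of each library, and 4 of the 6 had the mean expected count of at least 10 that was needed for a test.

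The cells were macrophages grown from bone marrow of C57BL/6J mice, treated with lipid A at 100 ng/ml for 90 minutes. Lipid A is the part of bacterial lipopolysaccharide that the receptor TLR4 binds. RNA was taken from the chromatin fraction, which is enriched in transcripts still bound to their genes, and was depleted of ribosomal RNA before total RNA sequencing. The labels give 1 group of 3 biological replicates, with 1 µg, 250 ng and 500 ng of starting RNA in replicates 1, 2 and 3, so the amount and the replicate cannot be told apart. All 3 carry the same donor label, and sex and age were not collected. The labels name no separate animals or cultures, so the p-values rest on a spread between samples that may be technical only. Cells without lipid A were not analysed here: every value is a level at 1 time, not a response to lipid A.

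Chemokine receptors span the membrane of leukocytes and turn a gradient of secreted chemokine into directed movement. Most couple to inhibitory G proteins, whose freed subunits activate lipid kinases and the small GTPase Rac, and are then switched off by kinases and arrestins. CCR2 brings monocytes out of the bone marrow, CCR1 answers several inflammatory chemokines, and CXCR4 holds cells in the marrow through its ligand CXCL12. CX3CR1 binds fractalkine and marks many resident macrophages, and CCR7 guides activated dendritic cells to lymph nodes. CCRL2 is an atypical receptor: it binds chemerin and presents it to other cells without the usual G protein signal.

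The stretches of genome just before the start sites are shown because chromatin-bound RNA is read close to transcription. RefSeq (GRCm38.p6) start sites were available for 5 of the 6 genes, Ccr1, Ccr2, Ccrl2, Cx3cr1 and Cxcr4, with 7 entries in all, of which 3 belong to Ccrl2. Only the bases of each window that run up to the start without meeting an annotated exon of the gene are printed, 5′ to 3′ on the gene's strand, with motif matches in capitals. In the windows of Ccr2, Cx3cr1 and the third Ccrl2 start, the bases next to the start lie in an annotated exon of the same gene, so these are not printed.
Ccrl2 start 1, chr9:111057520-111057768, minus strand, NF-kB consensus match in capitals: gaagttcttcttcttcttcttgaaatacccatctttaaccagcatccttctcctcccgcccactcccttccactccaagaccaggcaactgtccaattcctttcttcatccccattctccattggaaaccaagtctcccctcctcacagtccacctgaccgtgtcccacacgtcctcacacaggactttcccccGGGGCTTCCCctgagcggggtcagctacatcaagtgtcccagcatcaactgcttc
Ccrl2 start 2, chr9:111057271-111057380, minus strand, no match: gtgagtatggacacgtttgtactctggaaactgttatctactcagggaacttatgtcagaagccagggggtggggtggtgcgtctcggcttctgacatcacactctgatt
Ccr1, chr9:123968693-123968942, minus strand, PU.1 motif in capitals: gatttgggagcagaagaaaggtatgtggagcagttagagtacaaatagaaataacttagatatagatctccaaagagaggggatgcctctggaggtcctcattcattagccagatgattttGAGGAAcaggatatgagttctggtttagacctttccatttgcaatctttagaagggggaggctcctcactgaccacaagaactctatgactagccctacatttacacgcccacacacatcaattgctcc
Cxcr4, chr1:128592300-128592549, minus strand, TATA box motif in capitals on both strands: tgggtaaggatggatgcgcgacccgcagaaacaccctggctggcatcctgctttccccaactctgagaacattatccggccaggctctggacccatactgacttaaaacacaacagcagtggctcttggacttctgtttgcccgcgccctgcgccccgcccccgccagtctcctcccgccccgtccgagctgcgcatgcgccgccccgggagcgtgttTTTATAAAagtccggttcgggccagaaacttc

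Motifs were searched on both strands of windows of 300 bases, from 250 before to 50 after each start: the NF-kB consensus and the ISRE (the interferon response element) by name, PU.1 (GAGGAA), AP-1 (TGANTCA) and the TATA box (TATAAA). The first Ccrl2 start had an NF-kB consensus match at base -56, and 4.51% of 32851 promoter windows held such a match. NF-kB is the main factor that TLR4 switches on. The Ccr1 window held GAGGAA at base -129, which 28.3% of windows held. PU.1 is the factor that defines the macrophage lineage. The Cxcr4 window held TATAAA at base -30, overlapped by its match on the other strand at -32, and 13.6% of windows held this motif. None of the 7 windows held the AP-1 or ISRE motif, which 7.81% and 3.44% of windows held. A match is a description of the letters and not evidence of binding.

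Ccrl2 and Ccr1 were the leading transcripts of the 6, at about the level of a typical expressed gene. Cxcr4 and Ccr2 lay well below that level, and Ccr7 and Cx3cr1 had only a few counts. Values are in TPM, a measure of transcript abundance that is scaled by gene length and can be compared between genes, from the alignment-based table unless the alignment-free one is named. A gene's level is its log2(TPM + 1) minus the median of the tested protein-coding genes of the same library, whose TPM was 5.5, 3.7 and 4.93 in replicates 1, 2 and 3. A gene was called above or below where limma treat put its level past 1 log2 unit from that median at a Benjamini-Hochberg adjusted p of 0.05 over 13434 genes.

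By that test, 0 of the 4 tested receptors were above and 2 were below, and 2 were not called. Of all genes tested, 21.3% were above and 21.3% were below. Among the protein-coding genes alone, 24.1% were above and 19.5% were below. The median level of the 4 tested receptors was -0.69, beside -0.21 over all genes tested. In bulk RNA, fewer cells that use a gene and less RNA per cell cannot be told apart.

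Ccrl2 (ENSMUSG00000043953.12, chr9:111054486-111057519, minus strand, mm10) had 11.37, 8.33 and 11.6 TPM in replicates 1, 2 and 3, a mean of 10.4 ± 1.83 (SD, n = 3). These rest on 334, 431 and 435 expected counts. The 3 libraries were close to each other, and each put Ccrl2 near 1 log2 unit over the reference, at 0.93, 0.99 and 1.09. The mean level of 1.00 ± 0.08 (SD, n = 3; SE 0.16) lay on the bound and was not called by limma treat (Benjamini-Hochberg adjusted p = 0.812). The gene lay above 71.6% of the genes tested. With no minimum count, which lowers the reference, it was called above at 1.95 (limma treat, Benjamini-Hochberg adjusted p = 0.00086), and with a minimum of 100 it was at -0.07.

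Ccr1 (ENSMUSG00000025804.5, chr9:123962124-123968692, minus strand) had 9.6, 5.23 and 5.3 TPM, a mean of 6.71 ± 2.5 (SD, n = 3). Its counts were 353, 368 and 291. Replicate 1 was higher than the other two on the TPM scale. The level was 0.71, 0.41 and 0.09, a mean of 0.40 ± 0.31 (SD, n = 3; SE 0.18), and was not called by limma treat (Benjamini-Hochberg adjusted p = 1). In the alignment-free table the mean level was -0.49, and with a minimum count of 100 it was -0.67, both on the other side of the reference.

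Cxcr4 (ENSMUSG00000045382.6, chr1:128588199-128592293, minus strand) had 0.67, 0.24 and 1.13 TPM, a mean of 0.68 ± 0.445 (SD, n = 3). Replicate 2 was the lowest and replicate 3 the highest, with 15, 10 and 35 counts. The level was -1.96, -1.92 and -1.48, a mean of -1.79 ± 0.27 (SD, n = 3; SE 0.18), called below by limma treat (Benjamini-Hochberg adjusted p = 0.00636). All 3 libraries put the gene below the reference by more than 1 log2 unit.

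Ccr2 (ENSMUSG00000049103.14, chr9:124101950-124113557, plus strand) had 0.11, 0.18 and 0.13 TPM, a mean of 0.14 ± 0.0361 (SD, n = 3), from 8, 16.13 and 10 counts. The level was -2.55, -1.99 and -2.39, a mean of -2.31 ± 0.29 (SD, n = 3; SE 0.18), called below by limma treat (Benjamini-Hochberg adjusted p = 0.00097). Only 0.447% of the genes tested had a lower level. A gene at 0 TPM, such as Ccr4, has levels of -2.70, -2.23 and -2.57 from the pseudocount, with an SD of 0.24. Ccr2 thus lay near that floor, and much of the spread of its level is that of the reference. Without replicate 2 the mean count of Ccr2 fell under the minimum, and 1 of the 3 receptors then tested, Cxcr4, was below. With no minimum count the reference itself drops, and both calls are lost: Ccr2 was at -1.36 (limma treat, Benjamini-Hochberg adjusted p = 0.0642) and Cxcr4 at -0.84 (adjusted p = 1). The receptors below were then Ccr7, at -1.42 (adjusted p = 0.0356), and Cx3cr1, at -1.48 (adjusted p = 0.0243), by the same limma treat test with Benjamini-Hochberg adjustment.

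Ccr7 (ENSMUSG00000037944.8, chr11:99144196-99155077, minus strand) had 0.16, 0.09 and 0.03 TPM, from 4, 4 and 1 counts. Cx3cr1 (ENSMUSG00000052336.7, chr9:119901616-120069879, minus strand) had 0.04, 0.03 and 0.08 TPM, from 2, 3 and 7 counts. Both were under the minimum count and were not tested. Pooled over the 3 libraries, Ccr7 was at 0.161 CPM (expected counts scaled to the library total; 95% Clopper-Pearson interval 0.0734 to 0.305) and Cx3cr1 0.214 (0.111 to 0.374). The same measure was 0.607 (0.42 to 0.848) for Ccr2 and 1.07 (0.817 to 1.38) for Cxcr4. It was 18.1 (17 to 19.2) for Ccr1 and 21.4 (20.2 to 22.7) for Ccrl2. Without molecular identifiers, repeated reads of a molecule cannot be told apart, so these intervals hold for counting error alone. The intervals of Ccr7 and Cx3cr1 overlap, and that of Ccr2 lies above both. CPM is not scaled by gene length, so these intervals order counts and not transcript abundance.

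**Figure D1:**
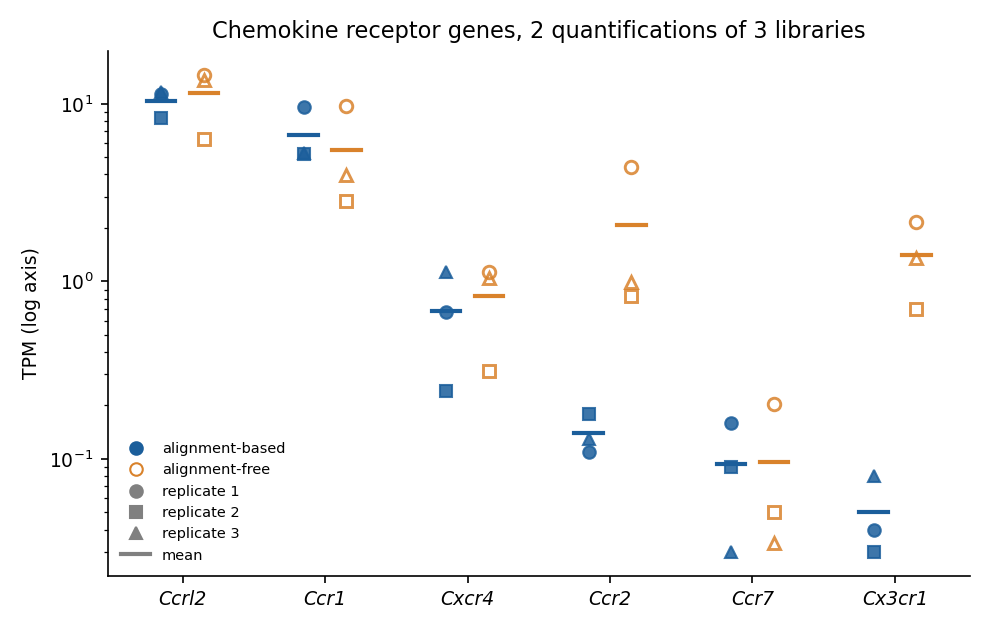
TPM of the 6 receptor genes on a log axis, with filled marks for the alignment-based and open marks for the alignment-free quantification, a shape for each replicate and a line at the mean. Ccrl2 and Ccr1 lie at 5.23 TPM or more in all alignment-based libraries, and the open marks of Ccr2 and Cx3cr1 lie far above their filled marks.

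The order by mean log2(TPM + 1) was Ccrl2, Ccr1, Cxcr4, Ccr2, Ccr7 and Cx3cr1. With 3 libraries, the smallest p that the exact two-sided sign-flip test can give is 0.25, so no pair of neighbours could pass a threshold of 0.05, and the sizes are given as a description. Ccrl2 exceeded Ccr1 by 0.22, 0.58 and 1.00 log2 units, a mean of 0.60 ± 0.39 (SD, n = 3; exact p = 0.25, 0.417 adjusted over the 5 pairs). The gap from Ccr1 to Cxcr4 was the widest of the 5, at 2.67, 2.33 and 1.56, a mean of 2.19 ± 0.56 (SD, n = 3; exact p = 0.25, adjusted 0.417). Cxcr4 exceeded Ccr2 by 0.59, 0.07 and 0.91, a mean of 0.53 ± 0.43 (SD, n = 3; exact p = 0.25, adjusted 0.417). These 3 differences had the same direction in 3 of 3 libraries. Ccr2 and Ccr7 differed by 0.06 ± 0.11, and Ccr7 and Cx3cr1 also by 0.06 ± 0.11 (SD, n = 3; exact p = 0.5 and adjusted 0.5 for each). Those 2 differences were smaller than their spread and held in 2 of 3 libraries. In the alignment-free table Ccr2 exceeded Ccr7 by 1.30 ± 0.75 (SD, n = 3), more than the spread. There Ccr2 also exceeded Cxcr4, with a mean difference of -0.59 for Cxcr4 minus Ccr2, and Cx3cr1 exceeded Ccr7, at -1.09 for Ccr7 minus Cx3cr1.

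The spread of each gene between libraries was taken as the SD of its log2 CPM. It was 0.10 for Ccrl2, beside a median of 0.35 over 1861 genes of like count. For Ccr1 it was 0.27, beside 0.35 over 1953 such genes. Ccr2 had 0.39 beside 0.52, and Cxcr4 had 0.78 beside 0.49. Cxcr4 had the wider spread with all 3 libraries and 0.47 without replicate 3. With each library left out in turn, the spread of Ccr1 ranged from 0.08 (without replicate 3) to 0.37 (without replicate 2), and that of Ccr2 from 0.05 (without replicate 2) to 0.49 (without replicate 3). Ccr7 and Cx3cr1, at 0.62 and 0.54, had too few counts for such a set.

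The 2 quantifications of a library gave unlike values for Ccr2 and Cx3cr1. Ccr2 had 4.4, 0.824 and 0.99 TPM in the alignment-free table, from 218.7, 145.9 and 112 estimated counts. Pooled, this is 14 times its alignment-based count, and 27.3, 9.05 and 11.2 times in the single libraries. Cx3cr1 had 2.16, 0.695 and 1.35 TPM, from 127.7, 139 and 165 estimated counts, which is 36 times its alignment-based count. Replicate 1 had the highest alignment-free TPM of both genes. It also had the highest alignment-free median of the tested protein-coding genes, at 11.9, 4.15 and 7.63 TPM in replicates 1, 2 and 3. The estimated count of Cx3cr1 was lowest in replicate 1.

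Such ratios were not rare at low counts. Among 3359 genes within 2-fold of the Ccr2 count the median ratio was 2.59, and 9.74% reached the ratio of Ccr2. Among 3383 genes near the Cx3cr1 count the median was 3.11, and 9.19% reached its ratio. The other four receptors had lower ratios: 1.19 for Ccr1, 1.43 for Ccrl2, 1.44 for Ccr7 and 1.9 for Cxcr4. Over all genes tested the median ratio was 1.73.

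On the level scale, the alignment-free minus alignment-based difference was 1.30, 0.50 and 0.28 for Ccr2, a mean of 0.69 ± 0.54 (SD, n = 3). For Ccr1 it was -0.98, -0.83 and -0.88, a mean of -0.89 ± 0.08, so Ccr1 was lower in the alignment-free table in all 3 libraries. Ccrl2 differed by -0.49 ± 0.16 and Cxcr4 by -0.43 ± 0.33. None of the 4 tested receptors passed limma treat in either direction (Benjamini-Hochberg adjusted p = 1 for each). Of 13427 genes, 1.9% were called higher and 0.633% lower in the alignment-free table. Ccr2 and Cxcr4 were called below the reference in the alignment-free table too, at -1.62 (adjusted p = 0.025) and -2.21 (adjusted p = 0.00062) by limma treat with Benjamini-Hochberg adjustment.

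The annotated span of Cx3cr1 is 168 kb and overlaps 9 other genes. They include Wdr48, on the opposite strand, with a mean of 39.2 TPM and Csrnp1, on the same strand, with 29.2 TPM. The long span comes from the isoform Cx3cr1-202, which had no count in either table. The alignment-free table put all 431.6 estimated counts on Cx3cr1-201, and the alignment-based one put 5 on Cx3cr1-201 and 7 on Cx3cr1-203. Each of the others overlaps 0 genes. Ccr2 has 4 annotated isoforms, and the largest alignment-free share was on Ccr2-201, with 334.5 estimated counts, against 13.01 alignment-based. Ccr2-203, whose long first exon covers intron of Ccr2-201, had 115.6 against 17.38. Whether reads from introns or from overlapping genes play a part in these differences was not tested. The strand setting of the counting is not given in the sources used here.

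Ccrl2 has annotated isoforms with different starts, and its upstream sequences printed above differ with the start. Ccrl2-203 starts at base 111057519 of chromosome 9, Ccrl2-201 starts 249 bases further along the gene, and Ccrl2-202 another 24 bases on. Start 1 above belongs to Ccrl2-203 and start 2 to Ccrl2-201, with RefSeq and GENCODE placing the first base of Ccrl2-203 a base apart. Ccrl2-201 and Ccrl2-203 differ in the first exon and also at the 3′ end, where they run to bases 111054486 and 111054832. Ccrl2-202 is the shortest of the isoforms, at 569 bases.

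Ccrl2-201 had 8.42, 5.55 and 5.39 TPM, which is 74.1%, 66.6% and 46.5% of the gene's TPM and a mean share of 62.4% ± 14.3 (SD, n = 3). Ccrl2-203 had 2.95, 2.08 and 5.04 TPM, which is 25.9%, 25% and 43.4% and a mean share of 31.5% ± 10.4 (SD, n = 3). Ccrl2-202 had 0, 0.7 and 1.17 TPM and a mean share of 6.16% ± 5.4 (SD, n = 3). Ccrl2-201 led in 3 of 3 libraries, by the smallest margin in replicate 3, where the shares of the leading isoforms were nearly equal. Ccrl2-203, the isoform of start 1, had the lower share of this pair in each library, and a link to the motif was not tested.

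The alignment-free table gave Ccrl2-201 a share of 58.2% ± 17.6, which is within the spread of the other estimate. It gave Ccrl2-203 17.3% ± 4.26 and Ccrl2-202 24.4% ± 14.9 (SD, n = 3), so the order of the lesser isoforms by mean share changed. In replicate 3 of that table Ccrl2-202 led, with 40% against 38.5% for Ccrl2-201. The first exon of Ccrl2-201 covers sequence that is intron in the other isoforms. In chromatin RNA, which holds unspliced transcripts, these shares cannot tell a start at Ccrl2-201 from an unspliced transcript that began at Ccrl2-203. Ccr1 and Ccr7 have 1 annotated isoform each. Cxcr4-201 took 58.11 of the 60 pooled counts of Cxcr4.

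**Figure D2:**
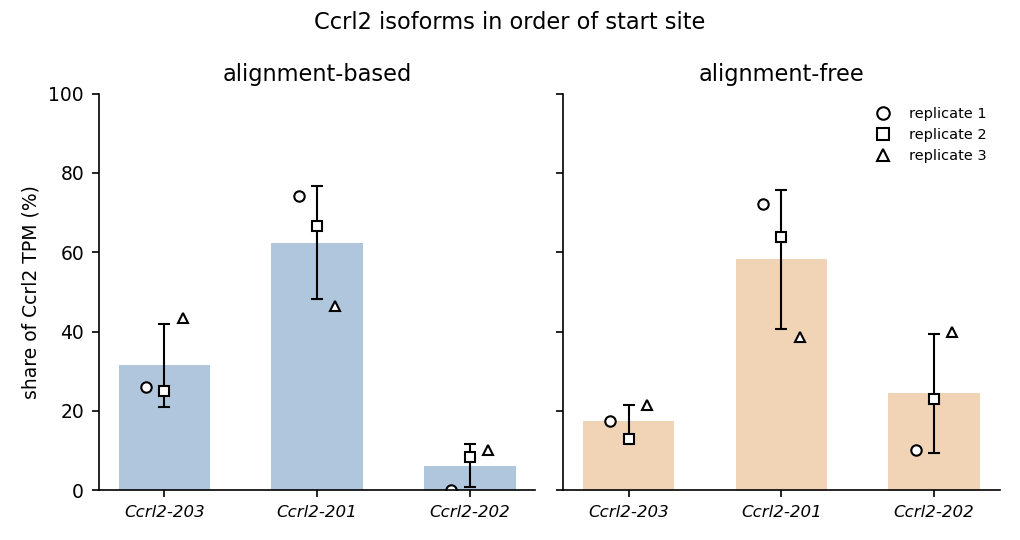
Share of each annotated isoform in the TPM of Ccrl2, in percent, by both quantifications, with bars at the mean, error bars of 1 SD and a point per replicate. Ccrl2-201 has the highest mean share in both, 62.4% and 58.2%, and the mean share of Ccrl2-202 is 6.16% in the alignment-based and 24.4% in the alignment-free table.

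Ccr1 and Ccr2 lie in a cluster of receptor genes on chromosome 9, and Ccrl2 and Cx3cr1 lie elsewhere on the same chromosome. The stretch from Cxcr6 to Ccr2 spans 307 kb. In chromosomal order its protein-coding genes are Cxcr6, Xcr1, Ccr1, Ccr1l1, Ccr3 and Ccr2, with mean TPM of 2.14, 0.07, 6.71, 0.267, 0.427 and 0.14. Ccr1 had the highest TPM of these in each of the 3 libraries. Ccr2 lies 133 kb from Ccr1, with Ccr1l1 and Ccr3 between them, so genes of the same cluster had unlike levels. The gap was narrower in the alignment-free table. There Ccr1 had 9.68, 2.85 and 3.98 TPM and Ccr2 had 4.4, 0.824 and 0.99 TPM.

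**Figure D3:**
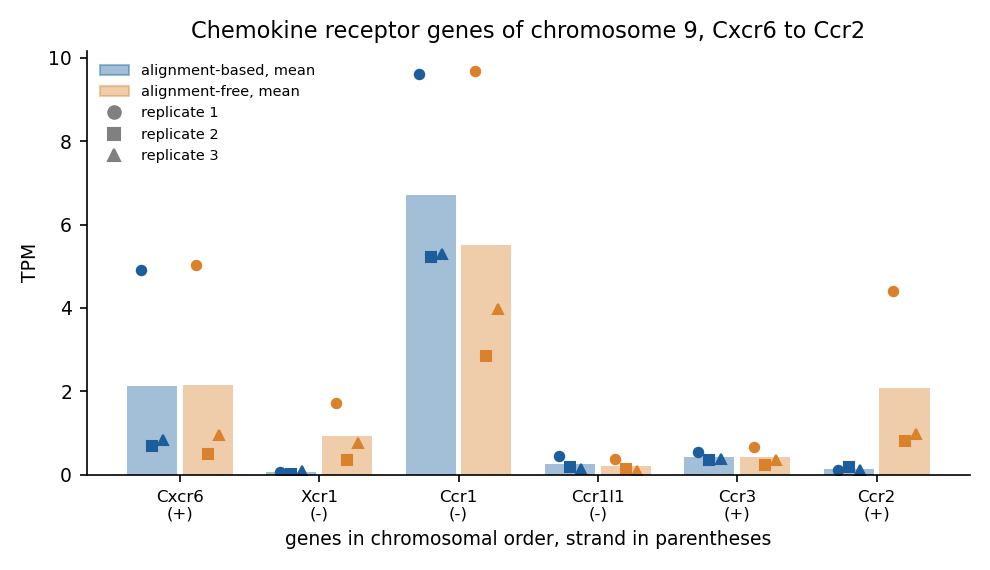
TPM of the protein-coding receptor genes from Cxcr6 to Ccr2 on chromosome 9 in chromosomal order, by both quantifications, with bars at the mean of 3 libraries and a point per replicate. In the alignment-based table Ccr1 stands highest at 6.71 TPM, and its neighbours Ccr1l1 and Ccr3 are at 0.267 and 0.427 TPM.

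Among 24 chemokine receptors and atypical receptors, 9 passed the minimum count. None of the 9 were above the reference, 5 were below (Cxcr4, Ccr2, Ccr3, Ccr9 and Ccr10) and 4 were not called. Their median level was -1.79, beside -0.21 over all genes tested, of which 21.3% were above and 21.3% were below. Another 5 had no count in any library of the alignment-based table: Ccr4, Ccr8, Cxcr1, Ackr1 and Ackr2. The alignment-free table gave Ccr4 19.7 and Ackr2 1 estimated count in all. Ccrl2 made up 46.5% ± 8.44 of the summed TPM of the 24 and Ccr1 28.8% ± 3.53 (SD, n = 3). Together they made up 69.5%, 76.9% and 79.5% in replicates 1, 2 and 3, so most of the summed signal came from this pair in each library.

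Cxcr6, the receptor for CXCL16, was at a level of -1.10 ± 0.84 (SD, n = 3) and was not called (limma treat, Benjamini-Hochberg adjusted p = 0.644). Cxcr6 had 4.9, 0.69 and 0.83 TPM, so replicate 1 alone carried its mean. Without replicate 1 its level was -1.57 and called below, on 2 libraries only (limma treat, Benjamini-Hochberg adjusted p = 0.00164, n = 2). In the alignment-free table it was called below with all 3 libraries, at -1.67 (adjusted p = 0.0234 in the same limma treat test). Cmklr1, the signalling receptor for chemerin, had 1.15, 1.39 and 0.55 TPM and a level of -1.50 ± 0.49 (SD, n = 3), which was not called (limma treat, Benjamini-Hochberg adjusted p = 0.0683). It was called below without replicate 1, at -1.44 (adjusted p = 0.0145, n = 2), and without replicate 2, at -1.78 (adjusted p = 0.0275, n = 2), in the same limma treat test. Ccr9, Ccr3 and Ccr10 were called below at -1.92 ± 0.07, -1.99 ± 0.17 and -2.14 ± 0.39 (SD, n = 3; limma treat, Benjamini-Hochberg adjusted p = 0.00205, 0.0018 and 0.00234). With no minimum count these calls were lost, at -0.97, -1.04 and -1.19, and that of Ccr9 was lost in the alignment-free table, at -1.21.

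The family's make-up depends on the quantification. Cxcr2, a neutrophil receptor that was not tested, had 1 pooled count in the alignment-based table and 606.1 in the alignment-free one, at 5.47, 1.11 and 1.75 TPM. Cmklr1 had 73.6, 15.3 and 28.5 TPM in the alignment-free table. It was called higher there, by 3.49 on the level scale (limma treat, Benjamini-Hochberg adjusted p = 0.00411), and it was 1 of the 9 tested. The alignment-free level of Cmklr1 was 1.99, called above (limma treat, Benjamini-Hochberg adjusted p = 0.00307). In that table Ccrl2 and Ccr1 together made up 26.3% ± 6.42 of the summed TPM of the 24 and Cmklr1 52% ± 4.76 (SD, n = 3). The lead of Ccrl2 and Ccr1 over all other receptors named here therefore holds for the alignment-based table, and Ccrl2 over Ccr1 for both. In the alignment-free table Cmklr1 alone stood above them. Next under Ccr1 by mean TPM there was Ccr9, at 6.05, 1.2 and 2.01 TPM.

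**Figure D4:**
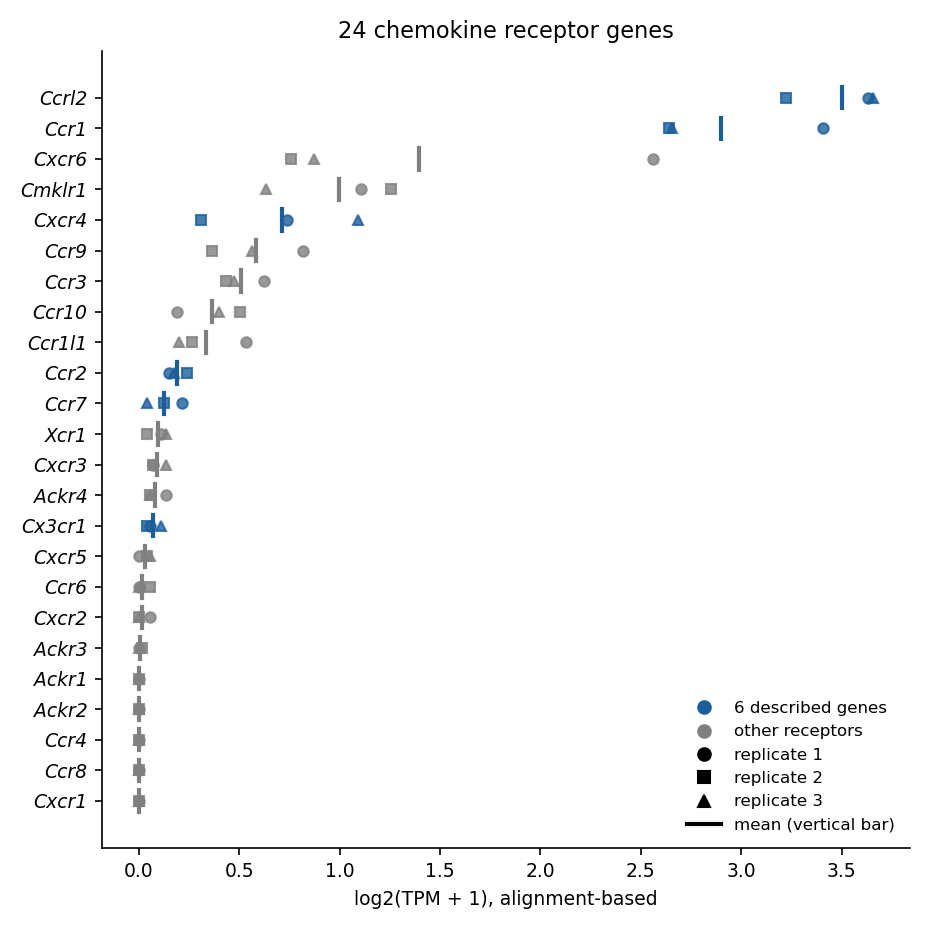
log2(TPM + 1) of 24 chemokine receptor and atypical receptor genes from the alignment-based table, with a point per replicate, a bar at the mean and the 6 receptors of interest in blue. Ccrl2 and Ccr1 lead, with means of 3.50 and 2.90, and most of the other genes lie near 0.

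The ligands of the 6 receptors were read from a list of 12 chemokines and related proteins. Of these, 8 were tested, 5 were above the reference, 0 were below and 3 were not called, with a median level of 3.22. Over all genes tested, 21.3% were above, 21.3% were below and the median level was -0.21. All 5 that were above are ligands of Ccr1 or Ccr2, as is every tested ligand except Cx3cl1. Among the ligands of Ccr1, Ccl5 had 517.24, 207.66 and 306.83 TPM and a level of 5.83 ± 0.44 (SD, n = 3; limma treat, Benjamini-Hochberg adjusted p = 1e-05). Ccl3 had 155.14, 46.88 and 80.95 TPM, and Ccl9 had 45.3, 25.98 and 27.54 TPM. Replicate 1 was the highest library for all 3 of these. Ccl6 stood at 7.98, 6.14 and 7.23 TPM, close to Ccr1 itself. Ccl9 lost its call with a minimum count of 100, at 1.47, and Ccl6 was called above with no minimum, at 1.46.

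Within libraries, Ccl5 exceeded Ccr1 by 5.43 ± 0.31, Ccl3 by 3.51 ± 0.50 and Ccl9 by 2.14 ± 0.03 on the log2(TPM + 1) scale (SD, n = 3). Ccl6 differed from Ccr1 by 0.11 ± 0.32, less than the spread. In the alignment-free table Ccl9 had 262, 87.4 and 142.4 TPM and was called higher than in the alignment-based one, by 1.63 on the level scale (limma treat, Benjamini-Hochberg adjusted p = 0.0215). Its gap to Ccr1 was 4.66 ± 0.17 there, and those of Ccl5, Ccl3 and Ccl6 were 6.28 ± 0.45, 4.65 ± 0.46 and 0.78 ± 0.26 (SD, n = 3).

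Among the ligands of Ccr2, Ccl2 had 175.78, 88.91 and 147.34 TPM and a level of 4.56 ± 0.27 (SD, n = 3; limma treat, Benjamini-Hochberg adjusted p = 1.5e-05). Ccl7, another monocyte attractant, had 99.71, 58.44 and 98.43 TPM and a level of 3.89 ± 0.21 (SD, n = 3; adjusted p = 2.6e-05 by limma treat with Benjamini-Hochberg adjustment). Ccl12 varied more, at 16.26, 3.54 and 7.08 TPM, and was not called. Ccl2 exceeded Ccr2 by 6.87 ± 0.55 and Ccl7 exceeded it by 6.21 ± 0.48 (SD, n = 3). These were the widest ligand to receptor gaps of the 12 in the alignment-based table. In the alignment-free table they were 5.76 ± 0.57 and 5.27 ± 0.54 (SD, n = 3), and that of Ccl5 to Ccr1 was the widest. In both tables the monocyte attractants Ccl2 and Ccl7 stood far above their receptor in every library.

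The other ligands were low. Cx3cl1 (fractalkine), the ligand of Cx3cr1, had 0.78, 0.29 and 3.07 TPM, with replicate 3 apart from the others, and a level of -1.43 ± 0.76 (SD, n = 3). It was not called (limma treat, Benjamini-Hochberg adjusted p = 0.191). Without replicate 3 it was called below, at -1.88, on 2 libraries only (limma treat, Benjamini-Hochberg adjusted p = 0.0329, n = 2). Cxcl12, the ligand of Cxcr4, had 0.03, 0.06 and 0.06 TPM, and Rarres2, which encodes chemerin, had 0.06, 0.02 and 0 TPM. The Ccr7 ligands Ccl19 and Ccl21a had no count. For a count of 0, up to 3 counts are allowed, which is 0.266, 0.12 and 0.152 CPM in replicates 1, 2 and 3.

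**Figure D5:**
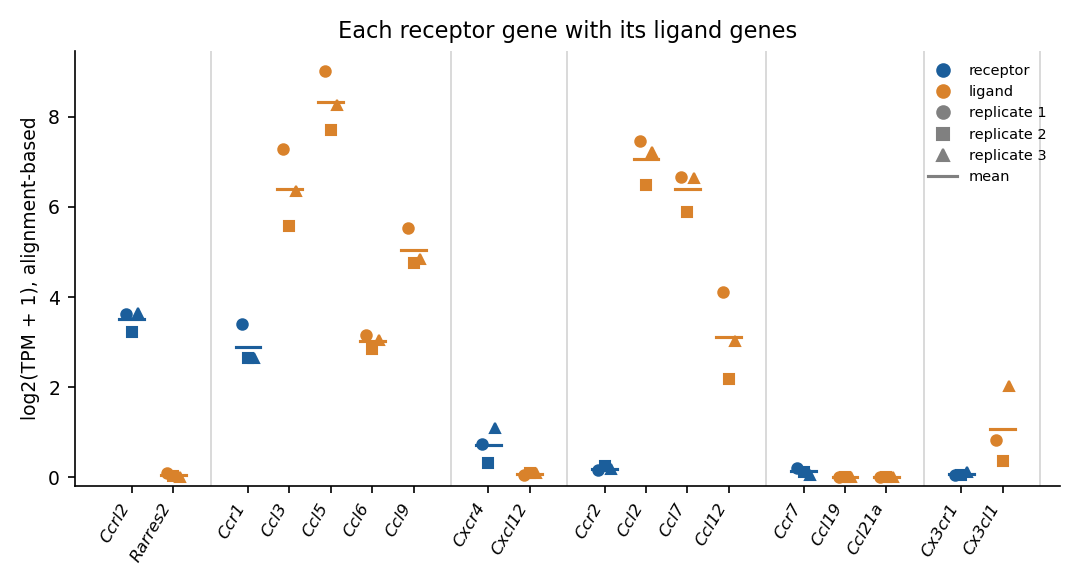
log2(TPM + 1) of each receptor (blue) with its ligands (orange), with a point per replicate. The ligands Ccl5, Ccl3 and Ccl9 lie above Ccr1, and Ccl2, Ccl7 and Ccl12 lie above Ccr2 in all 3 libraries, while Rarres2 lies below Ccrl2 and Cxcl12 below Cxcr4.

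Most of the genes that carry the signal from these receptors passed the minimum count. Of 28 listed genes, 27 were tested, 13 were above, 3 were below and 11 were not called, with a median level of 1.15. Over all genes tested, 21.3% were above, 21.3% were below and the median level was -0.21. Of the G protein subunits, 3 of 6 were above, led by Gnai2, the main inhibitory alpha subunit of leukocytes, at 3.45 ± 0.03 (SD, n = 3; limma treat, Benjamini-Hochberg adjusted p = 3.4e-05). Gng2, a gamma subunit, was the lowest, at -1.55 ± 0.08 and called below (adjusted p = 0.0164 in the same limma treat test). That call is lost in the alignment-free table, at -0.27, with the posterior mean TPM, at -0.97, with no minimum count, at -0.60, and with the median of all genes as reference, at -1.34. It is also lost without replicate 2, at -1.57, and without replicate 3, at -1.51 (limma treat, Benjamini-Hochberg adjusted p from 0.0757 to 1 over these settings).

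Of the kinases and arrestins, 3 of 6 were above. Arrb2, the arrestin that uncouples many chemokine receptors, was at 3.35 ± 0.23, and Grk6, a receptor kinase, was at -0.46 ± 0.65 and not called. Of 5 tested G protein brakes, 1 was above and 2 were below. Rgs1, which shortens chemokine signals, had 127.46, 65.06 and 77.48 TPM and a level of 3.95 ± 0.31 (SD, n = 3; limma treat, Benjamini-Hochberg adjusted p = 3.3e-05), and Rgs18 was called below at -2.11 ± 0.17 (adjusted p = 0.00123). With no minimum count Rgs18 was not called, at -1.16.

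Of the lipid signalling genes, 2 of 5 were above. Pik3r5, the regulatory subunit of the G protein-driven PI3-kinase, had 331.73, 217.31 and 298.54 TPM, high in every library. Pik3cg, its catalytic subunit, had 1.75, 3.5 and 3.76 TPM, close to the reference, at a level of -0.54 ± 0.62 (SD, n = 3). Of the Rac genes, 4 of 5 were above. Dock2, the Rac activator of leukocytes, had 186.71, 187.37 and 207.73 TPM, and Rac1 stood at 0.35 ± 0.03 and was not called. In the alignment-free table Rac1 was called above, at 2.09 (limma treat, Benjamini-Hochberg adjusted p = 0.00063). The lowest Pik3r5 library was far above the highest Pik3cg library.

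The genes whose level ran closest to each receptor over the 3 libraries were found by the root mean square difference of level. Nearest to Ccrl2 were Anapc5 (0.0399 log2 units) and Ylpm1 (0.0414), and nearest to Ccr1 were Nup85 (0.0253) and Opa3 (0.0438). Cxcr4 had Mxd4 (0.0765) and Psrc1 (0.112). Ccr2 had Muc5b (0.0103) and Kif7 (0.0106), Ccr7 had Bard1 (0.0264) and Cecr2 (0.0284), and Cx3cr1 had Cmya5 (0.0352) and Chd5 (0.0403). Within 0.1 log2 units lay 31 genes for Ccrl2, 12 for Ccr1 and 1 for Cxcr4, so Cxcr4 had the pattern shared by the fewest genes. The measure is over 3 libraries and includes the level itself.

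The labelled cell type was set beside marker lists, with 21.3% above and 21.3% below over all genes tested. These lists, like those of the ligands and signalling genes, were chosen with earlier results of these data known. They are a description and not an independent check. Of 10 macrophage markers, 7 were above the reference and 0 were below, led by Msr1 (312.76, 154.06 and 204.48 TPM), Adgre1 (258.02, 169.72 and 235.46 TPM) and Csf1r (31.65, 43.06 and 48.46 TPM). Their summed TPM was 499.9 to 702.1, and 393.8 to 1151.8 in the alignment-free table. Of 10 dendritic cell markers, 4 were tested and 1 was below, with a summed TPM of 6.44 to 9.45, led by Batf3, Zbtb46 and Fscn1 at means of 4.23, 1.38 and 1.25 TPM. Ccl17 was at 0. Ccr7, a receptor of activated dendritic cells, was low in the same libraries.

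In the alignment-based table, summed TPM was 2.26 to 5.12 for 6 monocyte markers, of which Nr4a1 made up the most, and 0.04 to 1.44 for 8 neutrophil markers, with Ly6g, Elane, Mpo and Retnlg at 0. It was 0.98 to 3.15 for 7 T and NK cell markers, led by Lck and Cd4, with Cd3e, Cd8a, Nkg7 and Klrb1c at 0. It was 0.57 to 0.79 for 5 B cell markers and 2.18 to 3.65 for 7 stromal and endothelial markers, led by Kdr. The protein-coding median was 11.9, 4.15 and 7.63 TPM in the alignment-free table, against 5.5, 3.7 and 4.93 TPM (replicates 1, 2 and 3). The sums of the lists for other cell types were also higher in that table. Part of this may be the scale, which was not tested. The sums were 10.3 to 29.1 TPM for dendritic cells, 2.85 to 9.73 for monocytes and 2.2 to 7.28 for neutrophils. They were 10.9 to 31.5 for T and NK cells, 1.79 to 6.03 for B cells and 17.3 at most for stromal and endothelial cells. Cd3d led the T and NK cell list there, at 21.5, 8.7 and 14.6 TPM from 1882.9 pooled estimated counts, against 1 count in the alignment-based table. Cd8a had 224 and Mpo 112.6 estimated counts against 0, and Cxcr2 led the neutrophil list. The part of other cells in the receptor values was not tested.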

How the data were processed

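Ribosomal-RNA-depleted RNA of the chromatin fraction was sequenced in 3 libraries of 1 group; group, replicate, dose, time and starting RNA come from the labels. The members and lists were chosen with earlier results of these data known.

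The deposited gene and transcript tables give expected counts and TPM from an alignment to the transcriptome (mm10, GENCODE M21), per the deposited description files, with the column names of RSEM, per the file headers. A deposited second transcript table gives estimated counts and TPM without an alignment, with the column names of kallisto, per the file headers; its transcripts were summed to genes. The deposited posterior SD of each count is a score, per the file headers, and was at most 0.37 for the 6 receptors. The aligner, tool versions and strand setting are among the steps not given in the sources used here. The authors scaled TPM over all entries of a file, so an abundant RNA moves all others.

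Depth was 11277198, 24965749 and 19794886 expected counts in replicates 1, 2 and 3, and 18505418, 45614572 and 34217429 estimated counts in the alignment-free tables. The 26345 tRNA, spike-in and phiX entries were left out. The minimum for a test was 10 expected counts on average, which left 13434 genes, of which 10530 were protein-coding. Levels, log2(TPM + 1) minus the protein-coding median, were tested with limma treat (3.58.1, R 4.3.3; intercept only, bound of 1 log2 unit, Benjamini-Hochberg over all tested genes at 0.05), after tests on simulated data. The pseudocount of 1 understates differences between low genes, and a gene at 0 TPM has a level of -2.50 ± 0.24 (SD, n = 3). The paired difference of the quantifications was tested likewise over 13427 genes. Spread used edgeR (4.0.16) CPM with TMM factors and a prior count of 2, on expected counts rounded to whole numbers, and DESeq2 (1.42.0) size factors as an alternative.

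All 6 receptors and all ligands were named, as were other receptors past the minimum count, the highest and lowest tested gene by mean TPM of each signalling group, up to 3 leading markers per list and the 2 nearest genes per receptor. Sequences are from RefSeq (GRCm38.p6), with 5 of 6 symbols matched. A receptor of the listed family is not reported here, and the family's counts and shares leave it out.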

Additional observations from a re-analysis of the deposited data

How the results depend on the processing

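The alternatives were the alignment-free table, the posterior mean TPM, a pseudocount of 0.1, no minimum count, a minimum of 100, the median of all genes as reference, edgeR log2 RPKM, DESeq2 size factors, a prior count of 0.5, isoform shares of counts, and leaving out each library. Of 470 values recomputed, 411 kept their direction and their side of the threshold or stayed within the spread. The minimum count sets the reference, which moves levels together. With no minimum, 1 of 6 receptors was called above (Ccrl2, 1.95). Of 19 family genes, 1 was above and 9 were below. Of 10 ligands 2 were below, and of 28 signalling genes 0 were below. Over all 22549 genes then tested, 4928 were above and 5539 were below. Grk6 (0.49) and Pik3cg (0.41) changed sign. A minimum of 100 left Ccrl2 and Ccr1 as the tested receptors and family genes. Of these 0 were below, as were 0 of 23 signalling genes, beside 785 of all 7399 genes then tested. Ccr1 (-0.67), Ccrl2 (-0.07) and Rac1 (-0.72) changed sign. With alignment-free TPM, 1 of 9 family genes, Cmklr1 (1.99), was above and 1 of 27 signalling genes was below. Over all 13427 genes tested there, 2812 were above and 3047 were below. Ccr1 (-0.49) changed sign, as did Cxcr4 minus Ccr2 (-0.59) and Ccr7 minus Cx3cr1 (-1.09). The shares of Ccrl2-203 and Ccrl2-202 were 17.3% and 24.4%. With the median of all genes as reference 1 of 27 signalling genes was below, beside 2084 of all 13434 genes tested. Leaving out a library gave 1 to 2 receptors below, 0 to 1 of 8 ligands below and 1 to 3 signalling genes below. Without replicate 2, 1 of 3 receptors and 1 of 27 signalling genes were below, and without replicate 3, 1 ligand was. Of all genes tested, 3232 of 13360 were below without replicate 1, 2306 of 13454 without replicate 2 and 1546 of 13466 without replicate 3. Each of these fits rests on 2 libraries. The cause of these changes was not tested, apart from the tested genes that a minimum count removes or adds. At 9 and 12 pooled counts, Ccr7 and Cx3cr1 cannot be ordered at this depth. No paired analysis was possible because the labels give 1 group, so replicate numbers pair no groups; the within-library differences pair genes or tables.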
